A study of Thunnus thynnus with 30 samples.

Results

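The genes described here encode the contractile machinery of muscle, the sarcomere, together with nppa, the gene of a hormone made by the heart. They were found by name among the 7295 rows of a gene count table of whole Atlantic bluefin tuna (Thunnus thynnus) larvae: every row named as a sarcomeric or related actin, myosin heavy or light chain, troponin, tropomyosin, titin, nebulin, myosin-binding protein, alpha-actinin, myomesin, tropomodulin, leiomodin or Z-disc partner of these, or as nppa. There were 50 such rows. By the fibre type in which each gene is best known from mammals and zebrafish, 11 were classed as fast skeletal, 10 as slow skeletal, 6 as heart, 8 as shared among striated muscles, and 13 as smooth muscle or non-muscle. Not in these classes were nppa and TNNI3K, a cardiac kinase whose name refers to troponin I. The fast class also takes in the skeletal actin rows acta1, Acta1 and acta1b, NEB (nebulin) and MYH8, which need not be particular to fast fibres. Orthology in tuna was not checked.

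The larvae were labelled wild type and fed from 2 to 15 days post hatching (dph) on rotifers, small live prey, whose enrichment brought them to 2.0 (low), 3.6 (medium) or 10.9 (high) mg DHA per g of dry weight. DHA, docosahexaenoic acid, is a polyunsaturated omega-3 fatty acid that marine fish larvae need in their food. Each level was kept in 3 tanks, and whole larvae were sampled at 5, 10 and 15 dph, which gave 9 groups. Each had 3 libraries, and the 5 dph high DHA group 2, replicates 2 and 3. Libraries of different ages may come from the same tank. There were 26 libraries in all, and p-values measure the spread between them.

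A sarcomere shortens when myosin heads of the thick filament pull on actin of the thin filament. Troponin and tropomyosin lie on the thin filament and let calcium switch this pulling on, titin spans from the Z-disc to the middle of the sarcomere, and nebulin runs along the thin filament. Fish trunk muscle consists mostly of fast white fibres with a thin layer of slow red fibres, each with its own set of troponin, myosin light chain and myosin-binding protein genes, and the heart has a further set. Heart muscle cells also make natriuretic peptide A, the product of nppa, which in mammals is released when the chamber wall is stretched and lowers blood volume. In whole larvae, fewer cells of a type and less RNA per cell cannot be told apart.

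Libraries held 12805866 to 19169404 counts, of which the 50 genes took 2.968% to 4.936%. All 50 passed the filter on low counts, and so did 7292 of the 7295 rows. The skeletal actin gene acta1 alone took 43.7% of the members' reads and MYL11, the fast regulatory light chain gene, 26.5%, so a sum over these genes follows that pair. Markers of heart, skeletal and smooth muscle, liver, neuron, gut and red cell were taken from rows that passed this filter, and their sums were above 0 in every library. The balance between long and short transcripts differed between libraries. A length score, the mean log2 CPM (read counts scaled to a common library total, log2) of 27 very long non-muscle genes minus that of 42 short respiratory chain genes, averaged -2.6, -3.6 and -3.06 at 5 dph, in the order low, medium, high DHA. It averaged -3.89, -2.84 and -3.12 at 10 dph and -2.72, -2.85 and -2.5 at 15 dph. The lowest scores were those of 10 dph low replicate 2 (-4.49) and 5 dph medium replicate 2 (-4.04).

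Most of these genes had group means within a factor of 2. The ratio of the highest to the lowest of the 9 group means had a median of 1.69, was under 2 for 36 genes and reached 7.91 for MYL5, a myosin regulatory light chain gene. For 15 of the 50 the highest group mean was that of low DHA at 10 dph. These ratios and this count were not taken over all tested rows, so whether the members differ in them from other genes is not known. In the edgeR quasi-likelihood test, with Benjamini-Hochberg adjustment over all tested rows and a threshold of 0.05, 35 of the 50 changed in at least 1 of the 9 comparisons of DHA levels within an age, and 15 in none. Of all 7292 tested rows 61.4% did so. The groups compared within an age share libraries, as low DHA at 10 dph stands in both the high and the medium comparison.

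**Figure D1:**
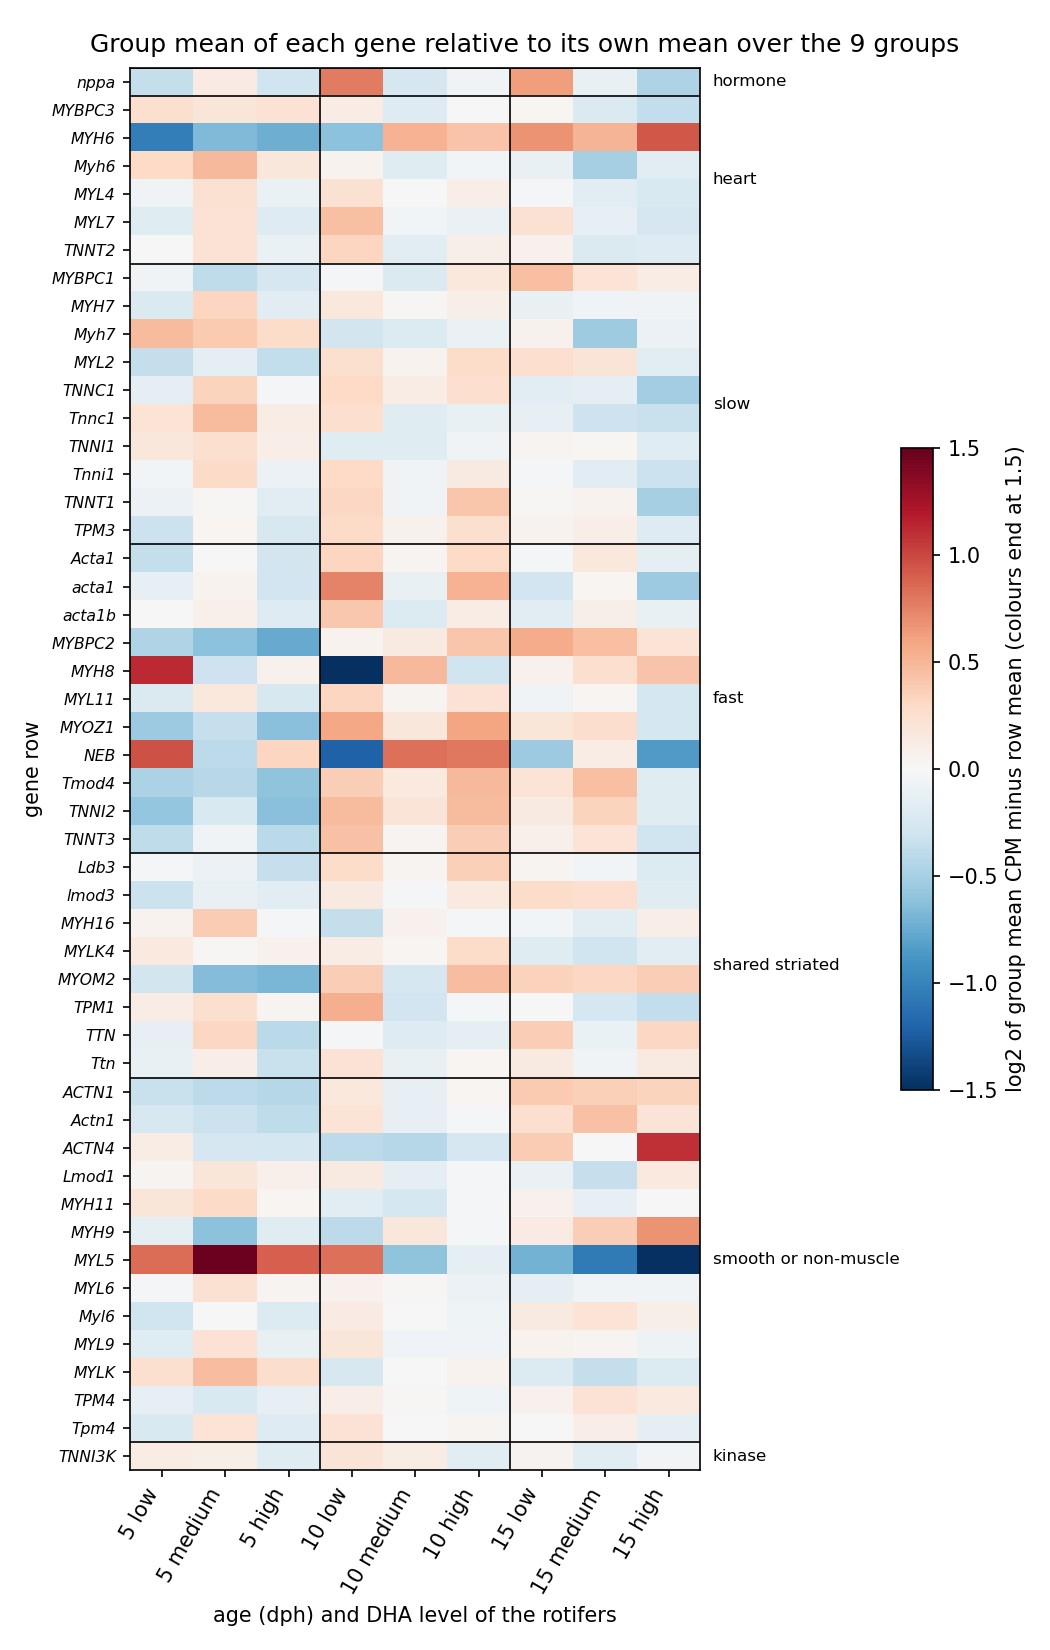
Levels of the 50 genes in the 9 groups, as the difference of each group's log2 CPM from that gene's mean over the groups, with genes in rows by class and groups in columns by age and DHA level. Fast genes are mostly lower at 5 dph than at 10 dph, nppa and MYL7 are highest in low DHA at 10 dph, and MYL5 falls across the ages.

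The hormone gene nppa was among the genes whose levels were ordered by DHA in the oldest larvae, as was MYH9 in the opposite direction. At 15 dph it stood at 11.9, 11.8 and 11.2 CPM in the 3 low DHA libraries, at 7.4, 7.27 and 6.16 CPM in medium and at 5.37, 5.22 and 5.83 CPM in high DHA. The 3 levels did not overlap, and each step up in DHA came with a lower range. High over low DHA was -1.09 ± 0.19 (log2 fold change ± SE, edgeR adjusted p = 0.0017). Neither single step passed the threshold, with medium over low at -0.75 and high over medium at -0.34. The difference at 15 dph held in each of 15 alternatives tried, between -1.13 and -0.99, including one with the length score as a covariate.

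At 10 dph the low DHA larvae again had the highest nppa, with 10.9, 13.8 and 14 CPM, against 7.54, 7.34 and 4.11 CPM in medium and 8.05, 5.58 and 8.22 CPM in high DHA. All low libraries lay above all others of that age. The log2 fold change was -0.82 ± 0.19 for high over low (adjusted p = 0.0047) and -1.04 ± 0.19 for medium over low (adjusted p = 0.00031, both edgeR). These differences ran with the length score, and once it was a covariate they were -0.5 and -0.59, with adjusted p of 0.24 and 0.13. Some sums of tissue markers also differed between the DHA levels at 10 dph. Neuron markers, 6 rows, summed to 451.6 to 643.3 CPM in low, 765.9 to 795.1 CPM in medium and 676.4 to 796.9 CPM in high DHA, with low below both. The heart markers include nppa itself, MYL7, TNNT2, Myh6 and MYH6, so their sum is not separate from these genes. They summed to 347.1 to 440.3 CPM in medium and 444.2 to 594.6 CPM in low DHA, without overlap. High DHA reached the lowest low library. Gut markers summed to 2454 to 2966 CPM in high and 3038 to 3232 CPM in low DHA, without overlap. Their medium libraries, at 2352 to 3124 CPM, overlapped low. Red cell markers summed to 939.4 to 1107 CPM in medium and 1262 to 1585 CPM in low DHA, without overlap. Their high libraries, at 1272 to 1389 CPM, overlapped low. Skeletal muscle, smooth muscle and liver markers overlapped between all levels. Their part in the results at 10 dph was not tested.

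At 5 dph nppa did not follow DHA. Its levels were 6.37, 5.28 and 5.98 CPM in low, 8.28, 9.73 and 6.54 CPM in medium and 5.37 and 6.9 CPM in high DHA, and high and low overlapped (log2 fold change 0.06, not called). All medium libraries lay above all low ones. For medium over low nppa was at 0.47 and not called (edgeR unadjusted p under 0.05). Between 5 and 10 dph its contrast of high with low DHA changed by -0.88 ± 0.29 (edgeR interaction, adjusted p = 0.039). That call was lost without any one of 8 libraries, 5 dph low replicate 2 or 3, 5 dph high replicate 2 or 3, 10 dph low replicate 2 or 3 and 10 dph high replicate 1 or 2, with values of -1.05 to -0.69. It was also lost with the length score as a covariate (-0.36) and with the libraries of lowest scaling factor left out (-0.82). From 10 to 15 dph the change was -0.26 and did not pass. Over the 9 groups the highest means were 12.9 CPM for low DHA at 10 dph and 11.6 CPM for low DHA at 15 dph, next to each other and overlapping in their libraries. Their lowest library, at 10.9 CPM, was above the highest of the other 7 groups, at 9.73 CPM in medium DHA at 5 dph. Those 7 groups had means of 5.47 to 8.18 CPM.

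The gene most like nppa over the 9 group means was MYL7, which encodes the regulatory light chain of atrial and embryonic heart myosin (Pearson's r of log2 CPM 0.941, over 9 groups that share libraries and scaling with all others). The next were Acan (0.922), the cartilage proteoglycan aggrecan, PRORP (0.921), a mitochondrial RNase subunit, PLA2G1B (0.909), a pancreatic phospholipase, and MATN1 (0.901), a cartilage matrix protein. MYL7 was therefore the only one of the 5 that is itself a contractile gene.

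**Figure D2:**
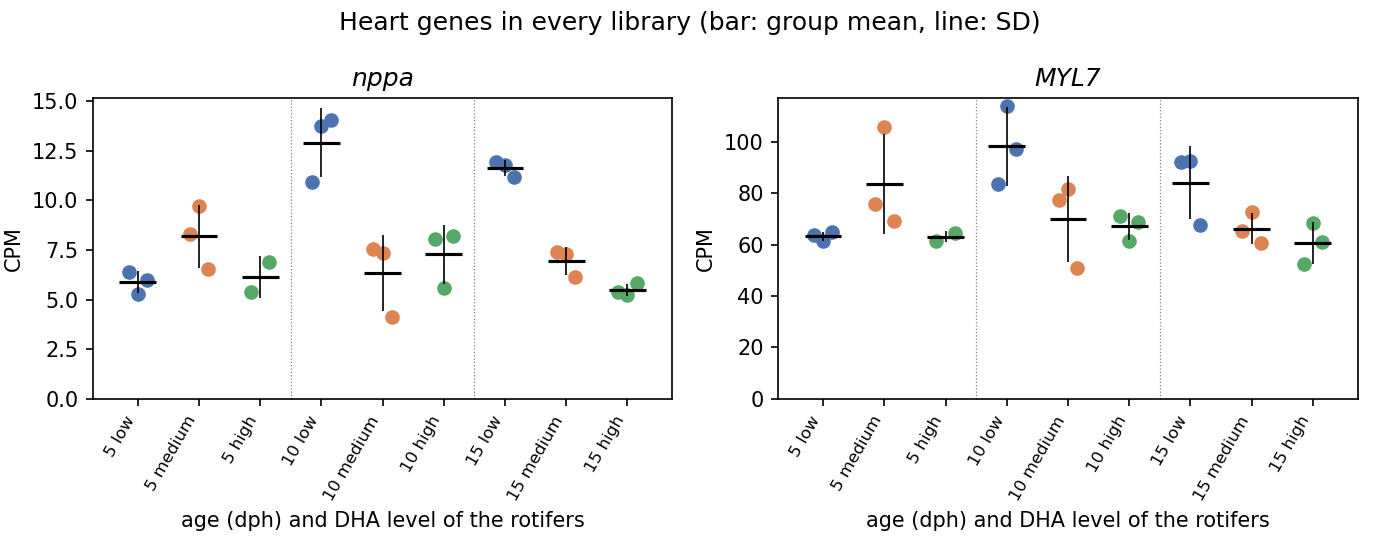
CPM of nppa and MYL7 in each library (points) with group means (bars) and SD (lines), by age and by DHA level from low to high. For nppa the low DHA libraries at 10 and 15 dph lie at 10.9 to 14 CPM, above all other libraries, and MYL7 has its highest libraries in low DHA at 10 dph and medium DHA at 5 dph.

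Of the 6 heart genes, 1 was higher and 1 lower in high than in low DHA at 10 dph (19.4% and 4.39% of all tested rows), and 1 was higher and 2 lower in medium than in low (24.3% and 10.6%). MYL7 stood at 83.5, 114 and 97.5 CPM in low, 77.3, 81.7 and 51 CPM in medium and 71.4, 61.4 and 68.8 CPM in high DHA at 10 dph. The low libraries were above all others of that age, and MYL7 was lower by -0.55 ± 0.17 in high (edgeR adjusted p = 0.021) and by -0.49 ± 0.17 in medium DHA (adjusted p = 0.024). As fitted with the length score these were -0.15 and 0.03. Without 10 dph low replicate 2 neither passed (-0.47 and -0.42), nor did high over low without high replicate 2 (-0.49) or medium over low without medium replicate 3 (-0.33).

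TNNT2, the cardiac troponin T gene, was at 131, 121 and 107 CPM in medium and 146, 192 and 167 CPM in low DHA at 10 dph, which did not overlap (-0.49 ± 0.11, edgeR adjusted p = 0.0015; -0.17 with the length score). High DHA, at 144, 138 and 145 CPM, was not called against low. The atrial light chain gene MYL4 and the cardiac myosin-binding protein gene MYBPC3 were called in no comparison of DHA levels at 10 or 15 dph. At 15 dph none of the 6 passed between high and low DHA in edgeR, with 3 at an unadjusted p under 0.05 and 1 called in DESeq2. Their median log2 fold change was -0.23, against 0 over all tested rows. Between medium and low DHA none passed (3 at an unadjusted p under 0.05), with all 6 values negative and a median of -0.27, against 0. Between high and medium DHA 1 of the 6 was called, Myh6, higher in high DHA (0.33, edgeR adjusted p = 0.035). Of all tested rows 7.84% were higher there. The Myh6 call was lost without medium replicate 1 or 3 or high replicate 2 or 3, and in the fit of the compared groups only. As single levels, MYL7 at 15 dph was 52.4, 68.6 and 61.1 CPM in high and 92.2, 92.7 and 67.7 CPM in low DHA, where one library of each group crossed over. The heart markers were 6 rows for 8 listed genes, 5 of the rows being among the 50. At 15 dph they summed to 357.4 to 409.9 CPM in high, 333.9 to 383.7 CPM in medium and 405.6 to 488.7 CPM in low DHA. Medium lay below low without overlap, and high overlapped each. The part of these markers in the nppa result was not tested.

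A pair of rows carries the name of the alpha myosin heavy chain, a heart myosin, and they behaved differently. Myh6 stood at 200, 218 and 209 CPM in high and 192, 264 and 213 CPM in low DHA at 10 dph, which overlapped. MYH6, a minor row with 1220 reads over all libraries, stood at 1.68, 1.62 and 1.5 CPM in low, 3.09, 3.82 and 3.64 CPM in medium and 2.56, 4.32 and 3.02 CPM in high DHA. It was higher by 1.04 ± 0.27 in high (edgeR adjusted p = 0.0087) and 1.13 ± 0.27 in medium DHA (adjusted p = 0.002). With the reads of both rows summed, the differences were -0.08 and -0.21, since Myh6 holds nearly all of them. The MYH6 call for high over low was lost without 10 dph low replicate 2 (1.01) or high replicate 2 (0.8), and in the fit of the compared groups only. With the length score as a covariate neither MYH6 call was kept.

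Of the classes with several genes, the fast genes had the largest median change at both steps of age. Of the 11 fast genes, 8 were higher and 1 lower at 10 than at 5 dph averaged over DHA levels, with a median log2 fold change of 0.51. Over all members 23 were higher and 10 lower (median 0.16). Of all tested rows 58% changed, 26.7% higher and 31.3% lower, with a median of -0.02. MYOZ1, a Z-disc partner of calcineurin, rose by 0.95 ± 0.08 (edgeR adjusted p = 5.6e-09), the fast troponin I gene TNNI2 by 0.86 ± 0.07 (adjusted p = 2.2e-09), and Tmod4, a cap of the thin filament's pointed end in skeletal muscle, by 0.84 ± 0.06 (adjusted p = 7.3e-10). The myosin-binding protein gene MYBPC2 rose by 0.81 ± 0.08, TNNT3, fast troponin T, by 0.56 ± 0.07, acta1 by 0.51 ± 0.12 and MYL11 by 0.29 ± 0.08. MYOZ1, Tmod4 and MYBPC2 did not overlap between the ages, and MYOZ1 libraries lay at 288 to 478 CPM at 10 dph and at 178 to 270 CPM at 5 dph.

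Between 10 and 15 dph most fast genes changed in the other direction. Of the 11 fast genes, 7 were lower and 2 higher at 15 than at 10 dph, with a median of -0.29. Over all members 20 were lower and 9 higher (median -0.14). Of all tested rows 57.7% changed, 25.9% lower and 31.8% higher, with a median of 0.04. The actin gene acta1 fell by 0.65 ± 0.12 on the log2 scale (edgeR adjusted p = 7.8e-05), MYOZ1 by 0.39 ± 0.08 (adjusted p = 0.00027), MYL11 by 0.3 ± 0.08 and TNNT3 by 0.29 ± 0.07 (-0.09 with the length score). The 2 that rose were MYH8, a low-count myosin heavy chain row (0.76 ± 0.22), and MYBPC2 (0.21 ± 0.08). With the length score neither was called (0.39 and 0.18), and the MYBPC2 call was also lost without 15 dph low replicate 1 (0.14), medium replicate 1 (0.18) or high replicate 3 (0.17). With the length score as a covariate 11 of the 50 genes passed in this comparison, 4 higher and 7 lower.

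The DHA levels differed in fast genes in different ways at the 3 ages. At 5 dph no member passed between high and low DHA in edgeR, where 0.0549% of all tested rows were higher and 0.0274% lower (2 members at an unadjusted p under 0.05, and 0 in DESeq2). The smallest p values were those of the fast myosin heavy chain row MYH8 (-1.05) and the Z-disc gene Ldb3 (-0.32). Medium was higher than low DHA for 12 members and lower for 4, against 16.7% and 10.4% of all tested rows, and the members' median was 0.21 against 0.04. Among fast genes MYL11 was at 10120, 13960 and 9245 CPM in medium and 9137, 8066 and 8547 CPM in low DHA at 5 dph (0.37 ± 0.13, edgeR adjusted p = 0.038). TNNI2 rose by 0.36 ± 0.12 and TNNT3 by 0.34 ± 0.11 in medium DHA. Without 5 dph medium replicate 2, the library with the lowest scaling factor, 0 members passed, and TNNI2 and TNNT3 were at 0.17 and 0.15. Both were also lost without low replicate 2 (0.3 each) or 3 (0.36 and 0.34), and TNNT3 under RLE scaling (0.31). In the fit with the length score MYL11, TNNI2 and TNNT3 were at -0.05, -0.01 and -0.01. Between high and medium DHA at 5 dph no member and 0% of all rows passed in edgeR (19 members at an unadjusted p under 0.05, and 10 in DESeq2; median -0.26 against -0.01). Sums of tissue markers also differed between medium and low DHA at 5 dph. Skeletal muscle markers summed to 24080 to 31100 CPM in medium and 22940 to 23420 CPM in low DHA. In the same order heart markers were at 518.7 to 629.3 and 477.8 to 489.3 CPM, and neuron markers at 579 to 783.4 and 875.9 to 900.3 CPM. Smooth muscle and red cell markers were also higher in medium without overlap, whereas liver and gut markers overlapped. The part of these markers at 5 dph was not tested.

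At 10 dph high DHA had 6 members higher and 5 lower than low DHA, against 19.4% and 4.39% of all tested rows (median -0.07 against 0.01). Medium DHA had 5 higher and 13 lower than low, against 24.3% and 10.6% (median -0.23 against -0.03). The actin gene acta1 was at 20490, 11500 and 12550 CPM in medium and 23920, 28000 and 28840 CPM in low DHA, without overlap (-0.86 ± 0.21, edgeR adjusted p = 0.0021). In high DHA it stood at 22370, 19760 and 26910 CPM, which overlapped low. TNNT3 was at 3089, 2973 and 2693 CPM in medium and 3467, 4271 and 3801 CPM in low DHA (-0.4 ± 0.11, adjusted p = 0.0081), and acta1b, another skeletal actin row, changed by -0.61 ± 0.19 (adjusted p = 0.016; -0.5 and not called without medium replicate 2). Once the length score entered the fit acta1 was at -0.61, acta1b at -0.49 and TNNT3 at -0.05, and none passed. MYBPC2 was higher in high DHA, at 559, 473 and 516 CPM against 392, 402 and 409 CPM in low (0.36 ± 0.13, adjusted p = 0.046). The call was lost without any one of the 6 libraries, at 0.3 to 0.42. It was also lost with the length score, in a fit limited to the compared groups and without the libraries of lowest scaling factor.

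Between high and medium DHA at 10 dph no member passed in edgeR, where 0.0549% of all rows were higher and 0.0823% lower (14 members at an unadjusted p under 0.05, and 1 in DESeq2). The members' median was 0.15, against 0 over all rows.

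At 15 dph several fast genes were lowest in high DHA. High DHA had 3 members higher and 8 lower than medium, 11 of 50, where 16.9% of all tested rows changed, 7.84% higher and 9.08% lower (median -0.12 against -0.01). Of the 11 fast genes 4 were lower (5 in DESeq2), with a median of -0.5. TNNT3 stood at 3183, 2933 and 2804 CPM in low, 3436, 3396 and 2972 CPM in medium and 2331, 2298 and 2288 CPM in high DHA, so that every high library lay below every other of that age. High over medium was -0.5 ± 0.11 (edgeR adjusted p = 0.0056). TNNI2 was at 1558, 1523 and 1519 CPM in high, against 2304, 2225 and 2070 CPM in medium DHA (-0.52 ± 0.12, adjusted p = 0.0055). Tmod4 was at 155, 136 and 168 CPM in high and 257, 240 and 212 CPM in medium DHA (-0.63 ± 0.11, adjusted p = 0.0014), and MYOZ1 changed by -0.52 ± 0.14 (adjusted p = 0.013). The high to medium calls of TNNT3, TNNI2 and Tmod4 held in each of 15 alternatives, including the length score.

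Against low DHA at 15 dph, high DHA had 1 member higher and 6 lower, 7 of 50, where 7.46% of all tested rows changed, 2.99% higher and 4.47% lower (median -0.17 against 0). Of the fast genes Tmod4 changed by -0.39 ± 0.11 (edgeR adjusted p = 0.027), with low libraries at 224, 187 and 188 CPM, and TNNT3 by -0.37 ± 0.11 (adjusted p = 0.049). The TNNT3 call was lost without any one of the 6 libraries (-0.41 to -0.31), under RLE scaling (-0.37) and in a fit limited to the compared groups. That of Tmod4 was lost without low replicate 1 (-0.3) or high replicate 1 (-0.39) or 2 (-0.31), and in a fit limited to the compared groups. TNNI2 stood at 1957, 1986 and 1809 CPM in low DHA, above all high libraries, without a call.

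**Figure D3:**
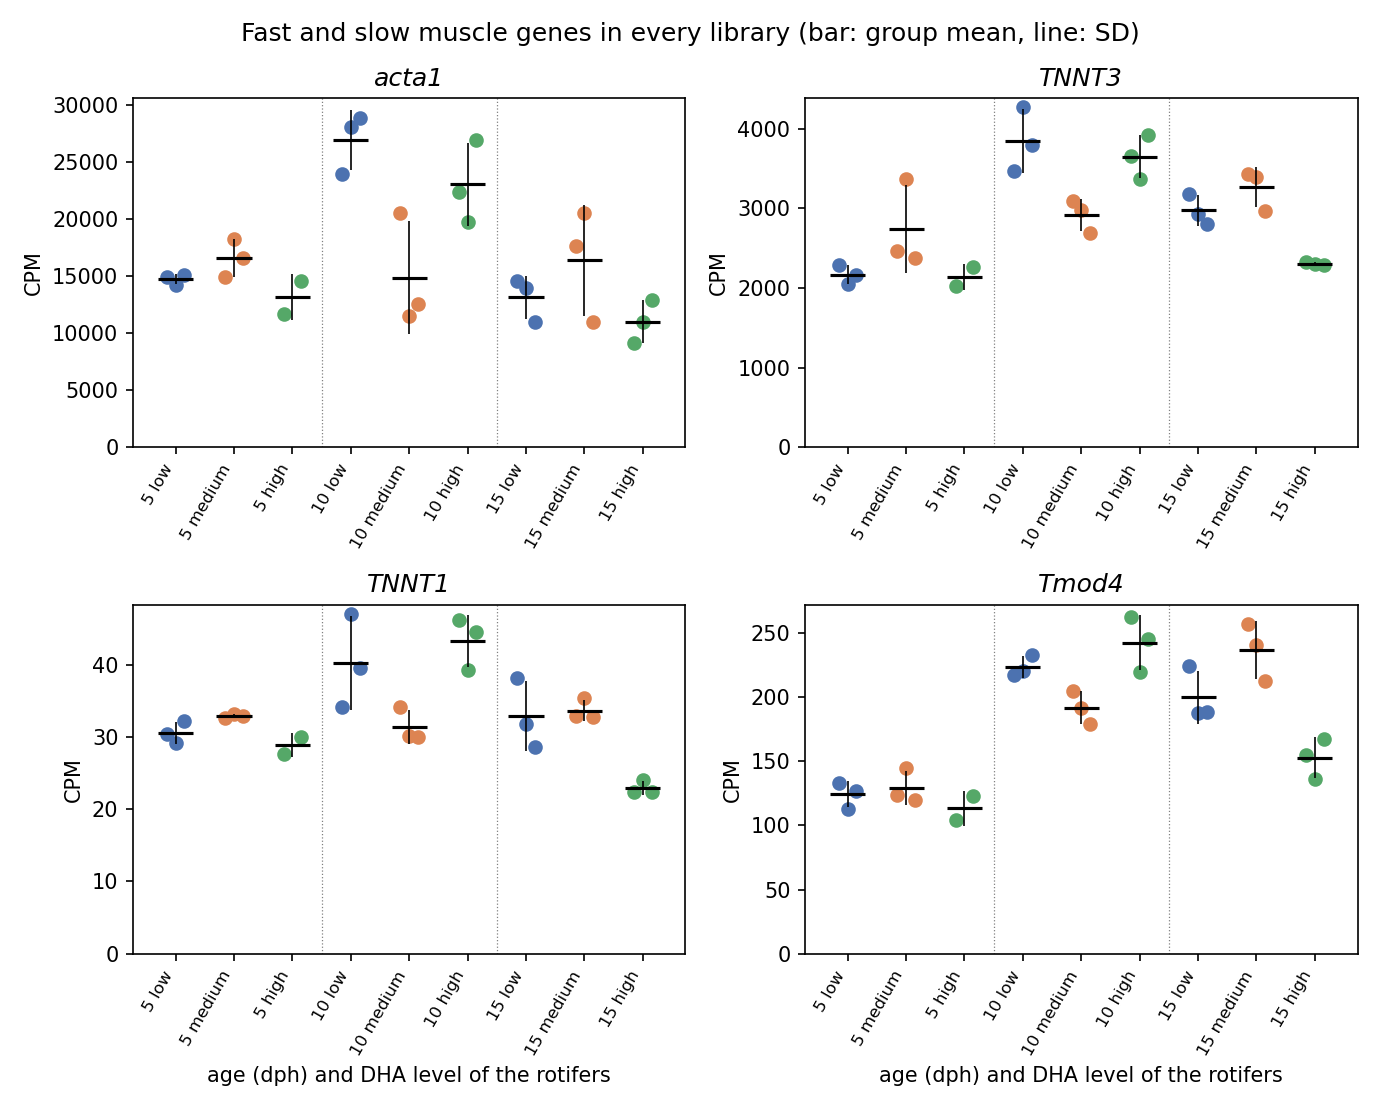
CPM of acta1, TNNT3 (fast), TNNT1 (slow) and Tmod4 (fast) in each library (points) with group means (bars) and SD (lines), by age and by DHA level from low to high. In the high DHA libraries at 15 dph TNNT3 lies at 2288 to 2331 CPM and TNNT1 at 22.3 to 24 CPM, below every medium and low library of that age.

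Marker sums moved with the 15 dph comparisons as well. The skeletal muscle markers outside the contractile genes, 6 rows for 10 listed, summed to 19510 to 23600 CPM in low, 17330 to 27180 CPM in medium and 15970 to 25560 CPM in high DHA, which overlap. Liver markers summed to 17150 to 21830 CPM in high, 25200 to 26840 CPM in medium and 26680 to 27390 CPM in low DHA. Gut markers summed to 1962 to 2148 CPM in high, 2595 to 2914 CPM in medium and 2495 to 3096 CPM in low DHA. In each case high lay below medium and low. Red cell markers were at 884.7 to 1090 CPM in high and 1099 to 1420 CPM in low DHA, without overlap. Neuron markers were at 747.5 to 802.2 CPM in high and 608.1 to 735.3 CPM in medium DHA, without overlap. Their part in the results on muscle genes was not tested.

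Of the slow genes, some of which the heart shares, TNNT1 was lowest in high DHA in the oldest larvae. TNNT1, the slow troponin T gene, stood at 38.1, 31.8 and 28.6 CPM in low, 32.9, 35.3 and 32.7 CPM in medium and 22.4, 24 and 22.3 CPM in high DHA at 15 dph. The high libraries lay below all others, while medium and low overlapped. The log2 fold change was -0.52 ± 0.11 for high over low (edgeR adjusted p = 0.0053) and -0.55 ± 0.11 for high over medium (adjusted p = 0.0031). Of 15 alternatives the high to low call was lost only in the fit limited to the compared groups, and the high to medium call held in all. At 10 dph TNNT1 had been at 46.1, 39.2 and 44.5 CPM in high and 34.1, 47 and 39.5 CPM in low DHA, and from 10 to 15 dph its contrast of high with low DHA changed by -0.63 ± 0.15 (edgeR interaction, adjusted p = 0.027). That call was lost without 10 dph low replicate 3 (-0.56), 10 dph high replicate 1 (-0.58), 15 dph low replicate 1 (-0.51), or 15 dph high replicate 1 (-0.59) or 3 (-0.61).

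MYL2, the regulatory light chain of slow and ventricular myosin, followed TNNT1 at 15 dph. It stood at 153, 126 and 112 CPM in low, 126, 121 and 130 CPM in medium and 106, 100 and 86.7 CPM in high DHA, with the high libraries lowest. High over low was -0.41 ± 0.11 (edgeR adjusted p = 0.021) and high over medium -0.36 ± 0.11 (adjusted p = 0.026). High over low lost its call without low replicate 1 (-0.28), high replicate 2 (-0.43) or high replicate 3 (-0.33) and in the fit of the compared groups only (-0.41), and the high to medium call without medium replicate 1 (-0.36) or 3 (-0.34) or high replicate 2 (-0.39) or 3 (-0.28) and with the length score (-0.28). TNNC1, troponin C of slow and heart muscle, was lower in high than in medium DHA (-0.39 ± 0.12, adjusted p = 0.029), and lost the call without any one of the 3 medium libraries (-0.39 to -0.38) or high replicate 3 (-0.28), with the length score (-0.26) and with both rows of that name summed (-0.3). Of the 10 slow genes 9 had a negative high over low value at 15 dph and 2 passed, both lower, where 4.47% of all tested rows were lower. Their median was -0.27, against 0 over all rows.

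The slow myosin rows did not share that pattern. MYH7, the heavy chain of slow and ventricular muscle and the slow gene with the most reads, stood at 1070, 1130 and 1046 CPM in low, 1120, 1212 and 1068 CPM in medium and 907, 1042 and 1457 CPM in high DHA at 15 dph, where all levels overlapped. Myh7, the second row of that name, was at 114, 109 and 102 CPM in low, 69.7, 72.5 and 72.5 CPM in medium and 86.9, 91.5 and 114 CPM in high DHA. It was the 1 member called between medium and low DHA at 15 dph (-0.6 ± 0.1, edgeR adjusted p = 0.01), lower in medium, where 0.0686% of all rows changed, 0.0274% higher and 0.0411% lower (members' median -0.04 against 0). High over medium was 0.44 ± 0.1 (adjusted p = 0.0049). The medium to low call was lost without medium replicate 1 (-0.58) or 2 (-0.61), and with both rows summed it was 0.02. High over medium was then 0.03 and not called. MYH7 holds most of the summed reads, so these sums say little about Myh7.

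At 5 dph MYH7 was at 1498, 1644 and 1257 CPM in medium and 1019, 1016 and 1000 CPM in low DHA, without overlap (0.54 ± 0.15, edgeR adjusted p = 0.013), and TNNC1 was higher by 0.48 ± 0.12 (adjusted p = 0.0087). Without medium replicate 2 neither was called, with MYH7 at 0.44 and TNNC1 at 0.3, and with the length score they were at 0.09 and 0.08. At 10 dph 3 of the 10 slow genes were lower in medium than in low DHA, where 10.6% of all rows were. Among them were Tnnc1 (-0.44 ± 0.13, adjusted p = 0.0086; -0.35 without medium replicate 3) and TNNT1 (-0.36 ± 0.11, adjusted p = 0.013; -0.28 without low replicate 2), and with the length score these were -0.12 and -0.11.

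With age the slow genes split. From 5 to 10 dph 4 of the 10 rose and 3 fell, against 26.7% and 31.3% of all tested rows, with a median of 0.14 against -0.02. MYL2 rose by 0.48 ± 0.07 (edgeR adjusted p = 2.4e-06), TPM3, the slow tropomyosin gene, by 0.37 ± 0.06 and TNNT1 by 0.31 ± 0.07. Myh7 fell by 0.57 ± 0.06 on the log2 scale (adjusted p = 4.2e-08), as did TNNI1, slow troponin I, by 0.31 ± 0.07 and Tnnc1 by 0.28 ± 0.07. All 3 falls were lost with rows of one name summed, where Myh7 was at 0.04, Tnnc1 at 0.05 and TNNI1 at -0.01. In each of these sums the other row of the name holds most of the reads, so the sum says little about the smaller row. MYL2 libraries lay at 111 to 150 CPM at 10 dph and at 80.5 to 110 CPM at 5 dph, and Myh7 at 81.7 to 109 CPM at 10 dph and 125 to 146 CPM at 5 dph, so neither overlapped. From 10 to 15 dph 5 slow genes fell and 1 rose, against 25.9% and 31.8% of all rows (median -0.19 against 0.04). TNNC1 fell by 0.5 ± 0.07 (adjusted p = 3.8e-06), with libraries at 91.5 to 146 CPM at 15 dph and 156 to 217 CPM at 10 dph, and MYBPC1, the slow myosin-binding protein gene, rose by 0.28 ± 0.07 (0.11 and not called with the length score).

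Among the 8 genes shared by striated muscles are the rows of titin. Ttn was at 552, 560 and 641 CPM in high, against 582, 756 and 655 CPM in low DHA at 10 dph, and TTN at 228, 227 and 222 CPM in high, against 224, 215 and 295 CPM in low. Both overlapped, and neither row was called in any comparison of DHA levels. From 10 to 15 dph TTN rose by 0.31 ± 0.12 (edgeR adjusted p = 0.033) and Ttn stood at 0.03. The TTN call was lost without 10 dph low replicate 1 (0.29) or 2 (0.27), medium replicate 2 (0.29) or 3 (0.3) or high replicate 3 (0.31). It was also lost without 15 dph low replicate 1 (0.28), medium replicate 2 (0.24) or high replicate 2 (0.3) or 3 (0.27), with both rows summed (0.11) and with the length score (0.45). Ttn holds most of the summed reads.

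NEB, the gene of nebulin and classed with the fast genes, moved far more than titin did. It stood at 40.3, 7.49 and 15.5 CPM in low, 109, 68.9 and 80.9 CPM in medium and 111, 91.5 and 50.7 CPM in high DHA at 10 dph, and the low libraries were below all others. High over low was 1.99 ± 0.5 (edgeR adjusted p = 0.0086) and medium over low 2.02 ± 0.5 (adjusted p = 0.0033). At 5 dph it was at 39.8, 49.6 and 22.6 CPM in medium and 85.6, 91.8 and 106 CPM in low DHA (-1.34 ± 0.48, adjusted p = 0.045). In both cases the group with the lower NEB also had the lower length score, and with the score as a covariate the values were 1.18 for high over low, 0.88 for medium over low and 0.14 at 5 dph, none called. The high to low call at 10 dph was lost without low replicate 2 (1.55), the library with 7.49 CPM. The call at 5 dph was lost without any one of the 6 libraries. At 15 dph NEB stood at 30.27 to 36.55 CPM in low, 16.77 to 81.67 CPM in medium and 19.14 to 32.61 CPM in high DHA. No comparison of these was called, and the high DHA group had the highest mean length score (-2.5).

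**Figure D4:**
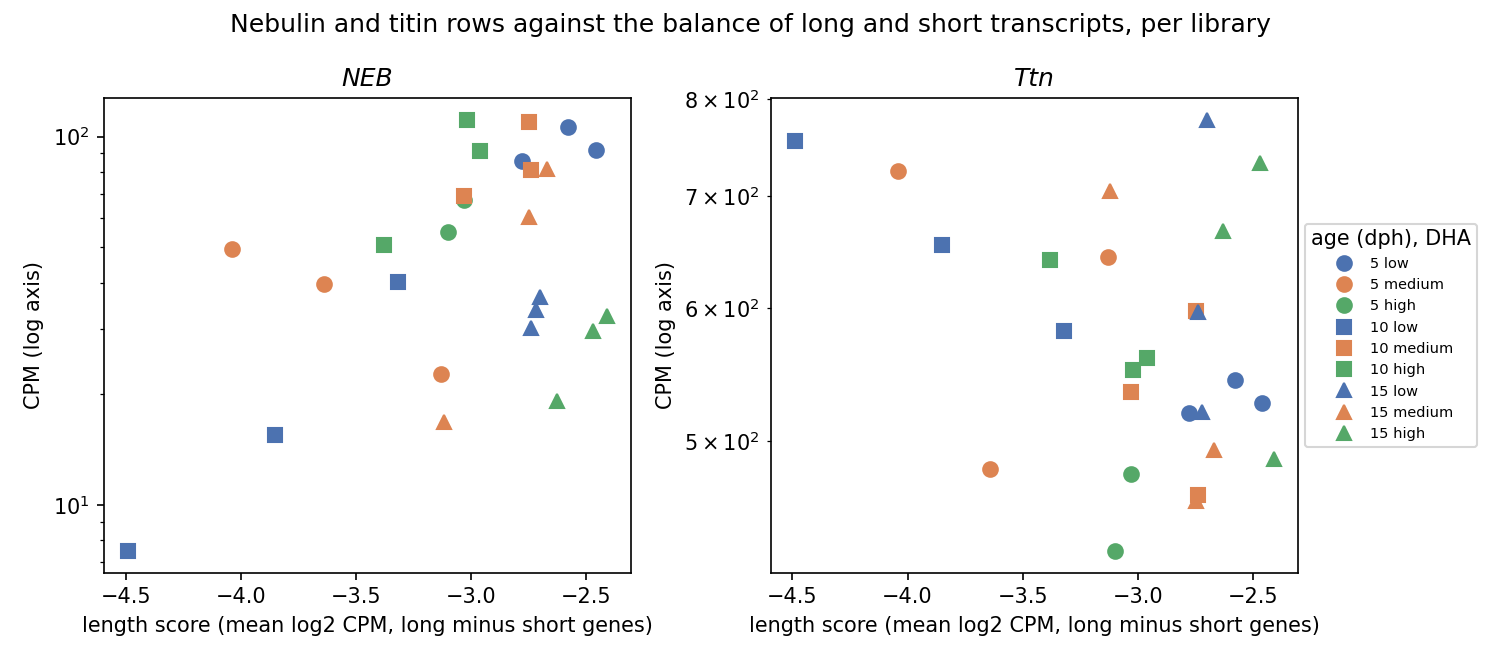
CPM on a log axis against the length score of each library, for NEB and Ttn, with libraries coloured by DHA level and marked by age. NEB is lowest, at 7.49 CPM, in the library with the lowest length score of -4.49, whereas Ttn has no low value there. The high DHA libraries at 15 dph have scores of -2.63 to -2.41 and NEB at 19.14 to 32.61 CPM.

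MYH8, a fast or developmental myosin heavy chain row near 1 CPM, ran with NEB. It was at 0.373, 0.0706 and 0.342 CPM in low, 1.29, 1.3 and 1.23 CPM in medium and 1.19, 0.501 and 0.526 CPM in high DHA at 10 dph. The log2 fold change was 1.45 ± 0.47 for high (edgeR adjusted p = 0.028) and 2.22 ± 0.43 for medium over low (adjusted p = 0.00043), and 0.99 and 1.58 with the length score, neither called. High over low also lost its call without low replicate 2 (0.99) or 3 (1.61) or high replicate 1 (0.93).

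TPM1, an alpha-tropomyosin row, differed in the other direction from NEB at 10 dph. It stood at 9.88, 15.1 and 11.4 CPM in low, 6.25, 8.87 and 5.34 CPM in medium and 8.24, 7.02 and 9.34 CPM in high DHA at 10 dph, with low above all others. High over low was -0.56 ± 0.19 (edgeR adjusted p = 0.036) and medium over low -0.84 ± 0.19 (adjusted p = 0.0017), and with the score -0.13 and -0.25. High over low lost its call without low replicate 2 (-0.42) or 3 (-0.64), or high replicate 1 (-0.57) or 2 (-0.46). The leiomodin gene lmod3, a nucleator of thin filaments in skeletal muscle, was at 21.7, 19.5 and 16.7 CPM in low, 18.4, 19.3 and 19.2 CPM in medium and 13.9, 12.4 and 15.7 CPM in high DHA at 15 dph. High over low was -0.46 ± 0.11 (adjusted p = 0.014; lost without low replicate 2, -0.45, or high replicate 2, -0.38) and high over medium -0.43 ± 0.11 (adjusted p = 0.012; lost without high replicate 2, -0.36).

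The 13 smooth muscle and non-muscle genes held the 1 member that was higher in high than in low DHA at 15 dph. MYH9, the heavy chain of a non-muscle myosin that moves and shapes many cell types, stood at 277, 288 and 320 CPM in low, 336, 350 and 358 CPM in medium and 427, 432 and 435 CPM in high DHA. The 3 levels did not overlap and rose with DHA, but neither medium over low nor high over medium was called. High over low was 0.55 ± 0.11 (edgeR adjusted p = 0.004) and held in each of 15 alternatives (0.5 to 0.61). At 10 dph it was at 218, 186 and 214 CPM in low, 248, 301 and 362 CPM in medium and 253, 278 and 262 CPM in high DHA (0.36 ± 0.11 for high and 0.56 ± 0.11 for medium over low, adjusted p = 0.021 and 0.00045). At 5 dph the order was different, with 166, 159 and 206 CPM in medium and 252, 246 and 239 CPM in low DHA (-0.47 ± 0.11, adjusted p = 0.0066). The calls at 5 and 10 dph were lost with the length score, and that of high over low at 10 dph also without low replicate 2 (0.25) or 3 (0.35) or high replicate 2 (0.32). The call at 5 dph was lost without medium replicate 2 (-0.41).

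ACTN4, a non-muscle alpha-actinin, was at 3.47, 3.25 and 4.62 CPM in high and 1.97, 1.77 and 1.61 CPM in medium DHA at 15 dph (1.08 ± 0.24, edgeR adjusted p = 0.0048), without overlap and held in 15 of 15 alternatives. The smooth muscle genes MYH11 (heavy chain) and MYL9 (light chain) were not called at 15 dph. Smooth muscle markers, 6 rows that include MYH11, summed to 1777 to 2157 CPM in high and 1868 to 2163 CPM in low DHA at that age. Medium over low was called for MYL9 at 5 dph (0.4, edgeR adjusted p = 0.007) and 10 dph (-0.25, adjusted p = 0.04). The 5 dph call was lost with the length score and without medium replicate 2. At 10 dph the value was 0.03 with the score, and the call was lost without low replicate 2 or 3 or medium replicate 1 or 3. From 5 to 10 dph MYH11 changed by -0.31 (adjusted p = 0.0026).

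MYL5 fell at both steps of age, by 1.04 ± 0.13 on the log2 scale from 5 to 10 dph (edgeR adjusted p = 1.1e-06) and by 1.12 ± 0.14 from 10 to 15 dph (adjusted p = 1.2e-06). At 10 dph it was at 14.1, 19.6 and 16.4 CPM in low, 6.51, 7.72 and 4.46 CPM in medium and 9.68, 6.52 and 9.47 CPM in high DHA, where low had kept levels near those of its 5 dph libraries (18.1, 16.7 and 15.8 CPM). High over low was -0.96 ± 0.23 (adjusted p = 0.0056) and medium over low -1.43 ± 0.23 (adjusted p = 0.00016), and -0.58 and -0.91 with the length score, neither called.

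Among the members 9 names occurred in rows that differ only in capitals, 18 rows in all, and such rows can hold reads of separate gene copies or share reads of 1 gene. Members of a pair often moved differently with age. From 5 to 10 dph MYH6 stood at 0.92 and Myh6 at -0.37, and TNNC1 at 0.17 and Tnnc1 at -0.28, whereas the alpha-actinin rows ACTN1 and Actn1 (0.41 and 0.34) were both higher.

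Genes that work with the sarcomere were listed by assembly, calcium coupling and regulation. Among 26 assembly and Z-disc rows, 7 were higher in high than in low DHA at 10 dph, where 19.4% of all tested rows were (7 higher and 1 lower in DESeq2; median 0.06 against 0.01). ABRA, an actin-binding activator of muscle transcription, rose by 1.12 ± 0.15 (edgeR adjusted p = 0.00074), CMYA5 by 0.94 ± 0.19 and xirp1 by 0.6 ± 0.14. Medium over low at 10 dph had 5 higher and 6 lower, against 24.3% and 10.6% of all rows, and at 15 dph no assembly row passed between high and low DHA in edgeR (3 at an unadjusted p under 0.05, and 1 in DESeq2). ABRA had been the 1 row called at 5 dph, lower in high DHA (-0.94 ± 0.17, adjusted p = 0.017), and its high to low difference changed by 2.06 ± 0.23 between 5 and 10 dph and by -1.42 ± 0.23 between 10 and 15 dph. ABRA averaged 21.9 CPM in high and 10.1 CPM in low DHA at 10 dph, and 17.1 CPM in high and 32.8 CPM in low DHA at 5 dph.

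Of 20 coupling rows, which store and release calcium, 3 were lower in high than in low DHA at 15 dph, where 4.47% of all tested rows were. HRC, a calcium-binding protein of the sarcoplasmic reticulum, changed by -0.59 ± 0.12 (edgeR adjusted p = 0.0049), and the calsequestrin genes CASQ2 by -0.35 ± 0.08 (adjusted p = 0.0092) and CASQ1 by -0.56 ± 0.17 (adjusted p = 0.043). Against medium DHA 4 coupling rows were lower, where 9.08% of all tested rows were. They were the same 3 and Srl (-0.33 ± 0.09, edgeR adjusted p = 0.013), with HRC at -0.8 ± 0.12 (adjusted p = 0.00075). HRC averaged 32.8 CPM in low, 37.9 CPM in medium and 21.8 CPM in high DHA. With age 10 coupling rows rose and 5 fell from 5 to 10 dph, against 26.7% and 31.3% of all rows, led by CASQ1 (2.15 ± 0.11) and HRC (1.14 ± 0.08). From 10 to 15 dph 10 rose and 2 fell, against 31.8% and 25.9% (median 0.2 against 0.04).

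Of 16 regulator rows, the transcription factor genes Mef2d (1.04 ± 0.23), SOX6 (0.66 ± 0.16) and MEF2A (0.88 ± 0.27) were higher in high than in low DHA at 10 dph. Those 3 of 16 are a share near the 19.4% of all tested rows. At 15 dph bves, a membrane protein gene of striated muscle, was lower in high DHA (-0.49 ± 0.13, edgeR adjusted p = 0.02). The muscle determination gene myod1 rose by 0.62 ± 0.09 from 5 to 10 dph and fell by 0.83 ± 0.09 on the log2 scale from 10 to 15 dph, and mymk, the gene of a protein of myoblast fusion, rose by 0.49 ± 0.12 and fell by 0.63 ± 0.12.

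The contrast of high with low DHA itself changed between 5 and 10 dph for 5 members, towards higher values for 3 and lower for 2, where it changed in 18.1% of all tested rows (13.6% and 4.53%). Between 10 and 15 dph it changed for 2 members, both towards lower values, where it did in 3.44% of all rows (0.466% towards higher and 2.98% towards lower).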

How the data were processed

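Whole larvae were measured by RNA sequencing. The deposited table holds whole-number read counts per gene name, as the authors deposited it; per the submitters' processing notes DESeq2 was used, with no version, and per the labels libraries were made with a TruSeq RNA kit. Aligner, assembly, annotation and strand setting: not given in the sources used here. Levels are not per length and antisense or overlapping genes cannot be told apart. Labels fixed the groups; 4 internal control samples are not analysed here.

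Counts of all 7295 rows were filtered (filterByExpr, 7292 tested, lowest row total 21), scaled by TMM and fitted with 1 mean per group in R 4.3.3 with edgeR 4.0.16 (robust quasi-likelihood F-test, two-sided, Benjamini-Hochberg over all tested rows, threshold 0.05; biological coefficient of variation 11.9%). The fit was tested on simulated data. DESeq2 1.42.0 was an alternative, with other scaling, no filter, compared groups only, summed rows, a replicate block, the length score and left-out libraries. The SE is the log2 fold change over the square root of F. CPM values use the scaled library sizes.

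Members were found by name, and 16 match a symbol of the reference gene list. Members and lists were chosen with earlier results of these data known; MYL11, acta1b and TNNI3K got their class after the table was seen. A rule picked the genes to name: nppa, the 3 rows with the most reads per class, and rows with the smallest p. The last were up to 3 of the smallest adjusted p per class, comparison and direction, or the 2 smallest p where none passed. Of the genes picked, MYH16, MYLK, MYLK4, MYOM2, Tpm4 and Myl6 are not described, nor is every call of the others. Values of the named genes in further comparisons were chosen after they were seen. No library pair within a group was alike within counting noise (chi-square per degree of freedom at least 4.43 over 25 pairs).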

Additional observations from a re-analysis of the deposited data

Results flagged for a closer look

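The high to low DHA difference changed between ages for 6 members, by the interaction term of the edgeR fit. Between 5 and 10 dph it changed by 2.62 ± 0.74 for NEB (adjusted p = 0.022), 2.5 ± 0.59 for MYH8 (adjusted p = 0.011) and 0.66 ± 0.2 for MYBPC2 (adjusted p = 0.026), each towards higher values in high DHA at 10 dph. It changed by -1.02 ± 0.33 for MYL5 (adjusted p = 0.037) and by -0.88 ± 0.29 for nppa (adjusted p = 0.039), towards lower values. Between 10 and 15 dph it changed by -0.72 ± 0.18 for MYBPC2 (adjusted p = 0.033) and by -0.63 ± 0.15 for TNNT1 (adjusted p = 0.027).

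MYBPC2 averaged 230 CPM in high and 282.6 CPM in low DHA at 5 dph, 516.2 CPM in high and 401.2 CPM in low at 10 dph, and 445.4 CPM in high and 570.4 CPM in low at 15 dph, so the sign of the difference was positive at 10 dph alone. With the length score as a covariate the changes of NEB, MYH8, MYL5, nppa and MYBPC2 between 5 and 10 dph were 1.2, 1.74, -0.4, -0.36 and 0.6, none called. The change of TNNT1 kept its call with the score, and that of MYBPC2 between 10 and 15 dph (-0.69) did not. Without 5 dph high replicate 3 none of the 5 changes between 5 and 10 dph was called, and without 10 dph low replicate 3 neither of those between 10 and 15 dph was.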

How the results depend on the processing

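Of the single-gene results between DHA levels, nppa and MYH9 for high over low and Tmod4, TNNI2, TNNT3, TNNT1 and ACTN4 for high over medium DHA at 15 dph kept direction and call in each alternative. Some alternatives could hardly move these. No filter added 3 rows, summing names changed no reads of these genes, and the libraries of lowest scaling factor are of 5 and 10 dph. Several changes with age also kept direction and call in each alternative. Among them were MYOZ1, TNNI2 and Tmod4 for 10 with 5 dph (27 alternatives) and acta1, TNNC1 and MYL5 for 15 with 10 dph (28 alternatives). Counts of called members moved as follows, with the cause not tested. DESeq2 gave 10 for high with medium at 5 dph, 1 at 10 dph, 11 for high with low at 15 dph and 5 for the change of that difference from 10 to 15 dph. The fit of the compared groups only gave 10 for high with low at 5 dph, 3 at 10 dph and 2 at 15 dph, 5 and 0 for medium with low at 5 and 15 dph, and 9 and 0 for the changes between ages. With the length score as a covariate there were 0 for medium with low at 5 dph, 0 for high with low, 1 for medium with low and 1 for high with medium at 10 dph, 11 for 15 with 10 dph, and 0 for the change from 5 to 10 dph. Leaving out both libraries of the lowest scaling factor, an alternative chosen after seeing the data, gave 2 for medium with low at 5 dph, 4 and 1 for high with low and high with medium at 10 dph, 16 for high with low at 15 dph and 3 for the change from 5 to 10 dph. RLE scaling (all shifts of the median under 0.03) and no filter moved no count by over 1.5 times.

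Leaving out 1 library gave 0 to 21 members for medium with low at 5 dph (0 without medium replicate 2), 0 to 10 for high with medium at 5 dph, 2 to 12 for high with low at 10 dph (2 without low replicate 2), 14 to 25 for medium with low and 0 to 6 for high with medium at 10 dph. At 15 dph the ranges were 3 to 8 for high with low (3 without high replicate 2), 0 to 1 for medium with low and 7 to 11 for high with medium (7 without high replicate 2). They were 29 to 38 and 27 to 30 for the ages, and 0 to 6 and 0 to 5 for the changes between ages.

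Some single values turned their direction. With names that differ only in capitals summed, medium with low at 15 dph had 0 members, Myh7 was at 0.02 there and at 0.04 for 10 with 5 dph, where Tnnc1 was at 0.05. MYH7 and TNNC1 hold most of the reads in these sums. MYH6 was then at -0.08 and -0.21 for high and medium over low at 10 dph and at -0.36 and -0.19 for the ages, since the summed row holds Myh6. With the length score nppa was at -0.14 for high over low at 5 dph, TNNI2, TNNT3, MYL11 and NEB at -0.01, -0.01, -0.05 and 0.14 for medium over low at 5 dph, Tnni1, MYL7 and MYL9 at 0.01, 0.03 and 0.03 for medium over low at 10 dph, and TPM1 at 0.04 for 15 with 10 dph. Without 1 library nppa was at -0.13 to 0.23 for high over low at 5 dph.

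Replicate numbers did not pair the libraries across all groups: of 25 pairs of the same number and age 12 had deviations correlated over 0.1 (-0.25 to 0.31), and of 25 of the same number and level 10 did. All 3 pairs were over 0.1 for medium with low DHA at 15 dph (0.11 to 0.16), where the block gave 1 member, as without it, and for high DHA at 15 with 10 dph (0.15 to 0.3). A block by number within each level gave 33 and 31 members for the ages. The replicate block gave 4 members for the change from 10 to 15 dph, also with the other number of 1 library, and moved no other count by over 1.5 times.

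With 3 libraries a group, and 2 for high DHA at 5 dph, small differences can be missed, most of all for MYH8 and MYH6 at a few CPM. The length score is a single number per library, and group and score overlap in part, so a call lost with it cannot be assigned to either. Gene names stand for whatever rows the table holds, and rows can share reads.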
